A study of Mus musculus with 19 samples.

Results

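A set of 10 genes of purinergic signalling were examined in retinal microglia of mice with laser-induced choroidal neovascularization (CNV), out of 27299 genes measured. The 10 genes were chosen by function, with earlier results of these data known. They encode the metabotropic nucleotide receptors P2ry12, P2ry13, P2ry6 and P2ry14, the ATP-gated channels P2rx4 and P2rx7, the ectoenzymes Entpd1 (CD39) and Nt5e (CD73), and the adenosine receptors Adora3 and Adora2a. All 10 were in the table, although Nt5e and Adora2a were read at only a few normalized counts. Bulk RNA-seq was made from 6 samples taken at day 3 after laser treatment (CNV d3, with 6 burns per eye) and from 6 samples of mice without laser (control). The mice were 8 weeks old by the labels and methods. A scheme in the paper gives 6 weeks, an age that its text states only for reporter mice used for imaging. By the labels the strain was C57BL/6J and the cells were CD45+. The methods instead name Cx3cr1 GFP/+ mice, in which 1 copy of Cx3cr1 is replaced by GFP in both groups, and cells low for CD45. In both descriptions the sort kept CD11b+ CX3CR1+ cells that were negative for Ly6C and Ly6G, so that Ly6C+ monocytes and neutrophils were gated out. How many mice went into a sample is not given in the sources used here, and the p-values therefore measure the spread between samples.

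Microglia sense nucleotides that leave damaged cells. ADP draws their processes to the site of injury through P2Y12, which is one of the most used markers of resting microglia, while UDP acts on P2Y6 to start phagocytosis and high ATP opens P2X7, a channel that leads to inflammasome activation. CD39 on the cell surface cuts ATP and ADP to AMP, CD73 cuts AMP to adenosine, and adenosine then acts on its own receptors.

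Between CNV d3 and control, 4 of the 10 genes fell and 1 rose at an adjusted p under 0.05 (limma on log2 of the normalized count plus 1, with Benjamini-Hochberg adjustment over 27299 genes). P2ry12, P2ry13, Entpd1 and Adora3 fell, and P2rx4 rose. Of all genes, 4.57% fell and 8.29% rose by this test, and among the 3877 genes with a mean of at least 1000 normalized counts, as 7 of the 10 genes have, 15.1% fell and 22% rose. P2ry12 and P2ry13 also passed the absolute log2 fold change of 1.5 that the study used for differentially expressed genes (DEG), as 1.07% of all genes and 0.284% of those with a mean of at least 1000 did in this direction. Samples of the groups did not overlap for these 5 genes. Over all genes the groups were separate with CNV d3 lower for 2.83% and higher for 4.64%, and over those with a mean of at least 1000 for 9.47% and 13.9%. The median log2 fold change of the 10 genes was -0.23, beside 0.15 over all genes. In bulk samples, fewer cells that express a gene and less RNA per cell cannot be told apart.

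**Figure D1:**
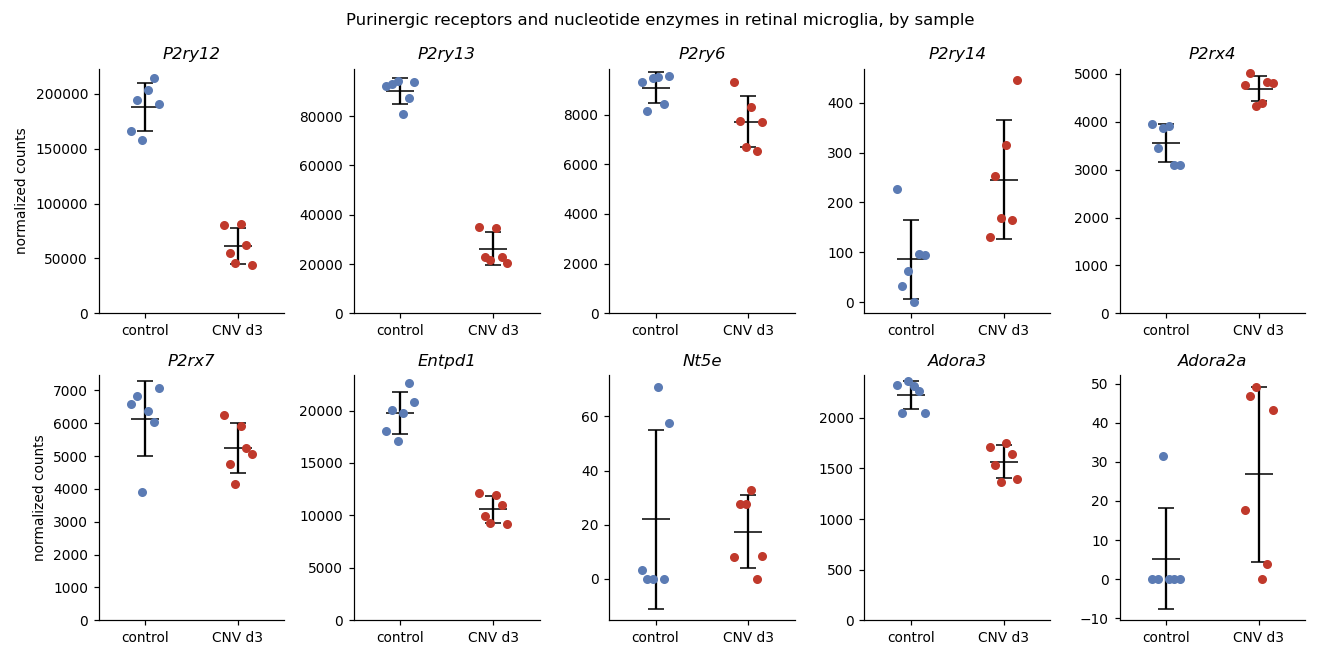
Normalized counts of the 10 genes in each of the 6 control and 6 CNV d3 samples (points), with the mean and SD of each group (horizontal line and bars). Each panel has its own linear axis, and the groups are separate for P2ry12, P2ry13, Entpd1 and Adora3 (lower at CNV d3) and for P2rx4 (higher).

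The 250 bases before the transcription start of the 5 genes that changed are shown as the promoter sequence of 4 genes that fell and of P2rx4, which rose. They come from RefSeq (GRCm38.p6), which gave a start for 8 of the 10 genes and 2 starts for Entpd1. Capitals mark matches, on either strand, to GAGGAA or GGAAGT, which are 2 forms of the site of the myeloid factor PU.1 and its ETS relatives, or to the AP-1 site TGANTCA. Each sequence runs 5′ to 3′ on the strand of its gene and ends at the base before the start.
P2ry12 (chr3:59262986-59263235, minus strand): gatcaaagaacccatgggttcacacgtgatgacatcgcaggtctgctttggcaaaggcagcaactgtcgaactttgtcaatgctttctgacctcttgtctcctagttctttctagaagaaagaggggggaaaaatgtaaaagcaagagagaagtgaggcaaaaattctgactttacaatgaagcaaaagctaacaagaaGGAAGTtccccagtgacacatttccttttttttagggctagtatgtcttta
P2ry13 (chr3:59210883-59211132, minus strand): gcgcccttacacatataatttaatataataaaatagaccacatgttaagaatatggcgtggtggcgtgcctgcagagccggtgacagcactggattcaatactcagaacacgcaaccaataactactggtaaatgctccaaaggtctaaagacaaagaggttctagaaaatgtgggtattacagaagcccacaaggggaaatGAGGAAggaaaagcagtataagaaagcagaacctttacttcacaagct
Entpd1, first start (chr19:40612116-40612365, plus strand): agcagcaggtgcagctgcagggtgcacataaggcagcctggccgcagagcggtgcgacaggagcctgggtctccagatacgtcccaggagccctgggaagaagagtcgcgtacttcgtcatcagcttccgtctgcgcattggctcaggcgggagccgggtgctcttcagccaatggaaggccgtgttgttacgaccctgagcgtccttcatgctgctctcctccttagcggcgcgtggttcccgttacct
Entpd1, second start (chr19:40659520-40659769, plus strand): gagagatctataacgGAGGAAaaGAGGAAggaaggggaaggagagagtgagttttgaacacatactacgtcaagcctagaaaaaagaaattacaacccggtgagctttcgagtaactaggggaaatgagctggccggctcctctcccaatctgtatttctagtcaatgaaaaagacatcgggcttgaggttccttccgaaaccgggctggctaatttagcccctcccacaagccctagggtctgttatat
Adora3 (chr3:105904171-105904420, plus strand): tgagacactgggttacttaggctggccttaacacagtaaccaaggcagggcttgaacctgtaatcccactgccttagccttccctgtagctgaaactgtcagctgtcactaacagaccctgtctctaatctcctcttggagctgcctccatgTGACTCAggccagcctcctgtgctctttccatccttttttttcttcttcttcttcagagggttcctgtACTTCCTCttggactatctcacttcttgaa
P2rx4 (chr5:122707294-122707543, plus strand): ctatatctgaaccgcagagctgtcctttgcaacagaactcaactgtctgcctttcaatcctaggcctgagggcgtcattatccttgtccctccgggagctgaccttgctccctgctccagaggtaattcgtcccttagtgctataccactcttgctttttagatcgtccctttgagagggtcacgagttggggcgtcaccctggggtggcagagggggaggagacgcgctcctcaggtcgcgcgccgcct

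The P2ry12 stretch held GGAAGT at 51 to 46 bases before the start, and the P2ry13 stretch held GAGGAA at 48 to 43 bases before it. The stretch of Adora3 held both forms, overlapping at 30 to 23 bases before the start, and 1 AP-1 site. The second start of Entpd1 had 2 copies of GAGGAA, and the first start of Entpd1 and P2rx4 had no match. Such matches are common. GAGGAA occurred in 23.3% and GGAAGT in 19.7% of 32851 RefSeq stretches of the same length, and TGANTCA in 6.75% of them. Of the 13 stretches that belong to the 8 genes, 4 of them for P2ry14 alone and 2 of these overlapping, 7 held GAGGAA, 3 held GGAAGT and 4 held TGANTCA. The IRF site of interferon-response genes, found in 2.98% of all stretches, was in none of the 13. These are matches of letters, and no binding was measured.

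Of the receptors for ADP, P2ry12 (ENSMUSG00000036353, chr3:59216272-59262871 of GRCm38) had the highest level of the 10 genes in both groups. Its lowest, median and highest control samples had 157959, 192436 and 214665 normalized counts, and those of CNV d3 had 44022, 58716 and 81084. The highest CNV d3 sample was thus well below the lowest control sample, and the groups did not overlap. The mean went from 187891 ± 21856 (SD, n = 6) to 61433 ± 16223 normalized counts (SD, n = 6), which is 32.7% of control, with a log2 fold change of -1.65 (SE 0.146, limma adjusted p = 1.01e-05).

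P2ry13 (ENSMUSG00000036362, chr3:59207892-59210882), a second receptor for ADP whose loss in mice affects microglial morphology and process movement, moved alike. It had 81079, 92671 and 94511 normalized counts in the lowest, median and highest control samples, and 20346, 22934 and 34890 at CNV d3. Again the groups did not overlap. The mean of 90344 ± 5214 in control and 26288 ± 6703 at CNV d3 (SD, n = 6 each) gave 29.1% of control and a log2 fold change of -1.82 (SE 0.128, limma adjusted p = 3.02e-06). Within each sample P2ry12 exceeded P2ry13 by a log2 ratio of 1.05 ± 0.23 in control and 1.219 ± 0.127 at CNV d3 (SD, n = 6 each), and this ratio did not differ past the test (difference 0.17, exact permutation p = 0.158, 0.18 adjusted over 5 pairs).

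P2ry6 (ENSMUSG00000048779, chr7:100937630-100974649) and P2ry14 (ENSMUSG00000036381, chr3:59113855-59153618), the receptors for UDP and for UDP-sugars, did not pass the test. P2ry6 ranged from 8144 to 9560 normalized counts in control and from 6553 to 9305 at CNV d3, with overlapping groups. Its log2 fold change was -0.24 (SE 0.0912, 95% interval -0.44 to -0.046, limma adjusted p = 0.104). The interval is not adjusted for the number of genes and leaves out 0 (limma p = 0.0187 before adjustment). Without CNV d3 replicate 1, the highest CNV d3 sample of P2ry6, the log2 fold change was -0.30 with an adjusted p of 0.029. The log2 ratio of P2ry6 to P2ry12 within a sample was -4.37 ± 0.24 in control and -2.96 ± 0.30 at CNV d3 (SD, n = 6 each), so that the UDP receptor gained on the ADP receptor by 1.41, with no overlap between groups (exact permutation p = 0.00216, the smallest that 6 against 6 samples allow, and 0.0108 adjusted over 5 pairs). P2ry14 was low, with 0 to 228 normalized counts in control and 130 to 446 at CNV d3. Its log2 fold change of 2.48 had an SE of 0.99, an unadjusted 95% interval of 0.36 to 4.59 and a limma adjusted p of 0.124, and the groups overlapped. The size rests on control replicate 4, the sample at 0, without which it was 1.41 (adjusted p = 0.0834), and DESeq2 and edgeR gave 1.52 and 1.54.

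P2ry12, P2ry13 and P2ry14 lie in 1 gene cluster on chromosome 3, inside the gene Med12l (chr3:59005825-59318682), which encodes a subunit of a Mediator module and is read from the opposite strand. Med12l fell from 2568 ± 452 to 1103 ± 193 normalized counts (SD, n = 6 each, log2 fold change -1.22, limma adjusted p = 8.49e-05), with no overlap between groups. Gpr171, an orphan receptor of the same cluster, was at 0 in 5 of 6 control samples and at 3.69 to 127 normalized counts at CNV d3 (limma adjusted p = 0.00166). Of the genes of the cluster described here, 3 fell and 1 rose. Exons of P2ry12 and Med12l share 9 bases, or 0.35% of the exon length of P2ry12. Exons of Med12l also lie between exons of P2ry12, and the libraries do not mark strand. Whether unspliced P2ry12 RNA adds to the counts of Med12l was not tested. Of the exon bases of Med12l, 17.3% are shared with other genes.

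**Figure D2:**
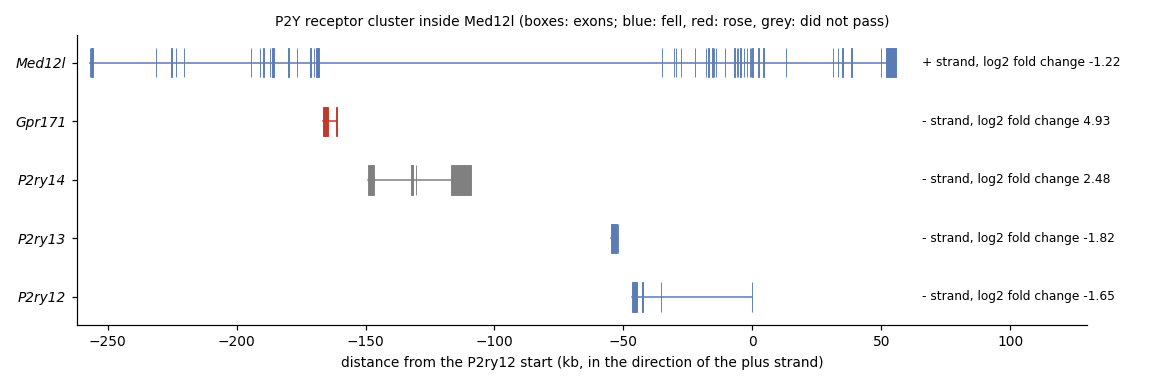
The P2Y receptor cluster of chromosome 3, with gene spans as lines and exons as boxes at their distance in kb from the P2ry12 start (horizontal axis, plus strand to the right), and the log2 fold change of each gene at the right. The 4 receptor genes shown are on the minus strand inside Med12l, and P2ry13, P2ry12 and Med12l fell while Gpr171 rose.

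P2rx4 (ENSMUSG00000029470, chr5:122707544-122729738), an ATP-gated channel known from spinal microglia after nerve injury, was the only one of the 10 that rose by the test. It had 3088, 3655 and 3943 normalized counts in the lowest, median and highest control samples, and 4333, 4788 and 5015 at CNV d3. Every CNV d3 sample was above every control sample. The mean rose from 3559 ± 404 to 4692 ± 267 (SD, n = 6 each), or 1.32-fold, with a log2 fold change of 0.40 (SE 0.0893, limma adjusted p = 0.00731). With limma without the mean-variance trend, the same difference had an adjusted p of 0.0571.

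P2rx7 (ENSMUSG00000029468, chr5:122643911-122691432), its neighbour on chromosome 5, was at 3915 to 7088 normalized counts in control and 4146 to 6263 at CNV d3. The groups overlapped, and the log2 fold change of -0.22 did not pass the test (SE 0.142, 95% interval -0.52 to 0.087, limma adjusted p = 0.389). Control replicate 3 was the low sample, at 3915 normalized counts beside 6035 or more in the other control samples, and without it the log2 fold change was -0.34 with an adjusted p of 0.0476. The log2 ratio of P2rx4 to P2rx7 went from -0.77 ± 0.41 to -0.15 ± 0.22 (SD, n = 6 each), a difference of 0.62 with overlapping groups (exact permutation p = 0.0152, 0.0379 adjusted over 5 pairs).

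Entpd1 (ENSMUSG00000048120, chr19:40612366-40741602) encodes CD39, the first enzyme of the pathway from ATP to adenosine. It had 17069, 19903 and 22676 normalized counts in the lowest, median and highest control samples, and 9153, 10470 and 12100 at CNV d3. The groups did not overlap. The mean fell from 19741 ± 1985 to 10562 ± 1289 (SD, n = 6 each), which is 53.5% of control (log2 fold change -0.91, SE 0.092, limma adjusted p = 2.85e-05).

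Nt5e (ENSMUSG00000032420, chr9:88327197-88372092), the enzyme of the second step, was low in both groups, with 22.0 ± 33.1 normalized counts in control and 17.4 ± 13.6 at CNV d3 (SD, n = 6 each). It was at 0 in 3 control samples and 1 CNV d3 sample. Its log2 fold change of 1.18 (SE 1.32, limma adjusted p = 0.604) had the opposite sign to the ratio of its means. The log2 ratio of Nt5e to Entpd1 did not differ past the test (exact permutation p = 0.18, also after adjustment over 5 pairs).

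Of the adenosine receptors, Adora3 (ENSMUSG00000000562, chr3:105870858-105908926) had 2049, 2288 and 2368 normalized counts in the lowest, median and highest control samples, and 1364, 1586 and 1756 at CNV d3. There was no overlap. Adora3, an inhibitory receptor that is found on mouse microglia, fell from 2228 ± 141 to 1567 ± 163 (SD, n = 6 each), or to 70.3% of control (log2 fold change -0.51, SE 0.0976, limma adjusted p = 0.00271). In the annotation, 20.9% of its exon bases are shared with Tmigd3 on the same strand, and Tmigd3 itself had 5.96 to 55.8 normalized counts in control and 6.65 to 17.6 at CNV d3.

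Adora2a (ENSMUSG00000020178, chr10:75316877-75334784), a stimulatory receptor known to be induced in activated microglia, was at 0 in 5 of 6 control samples and had 31.5 normalized counts in control replicate 3. At CNV d3, 1 sample was at 0 and the highest had 49.2 normalized counts. The groups overlapped, and the log2 fold change of 3.04 had an SE of 1.17 and a limma adjusted p of 0.11, which was 0.0262 without control replicate 3 and 0.0423 without CNV d3 replicate 4. The log2 ratio of Adora2a to Adora3 was higher at CNV d3 (exact permutation p = 0.0238, 0.0397 adjusted over 5 pairs), but with most control samples at 0 its size depends on the pseudocount, with a difference of 3.55 at 1, 4.18 at 0.5 and 1.74 at 10. Without CNV d3 replicates 3 and 6 its exact permutation p was 0.105.

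**Figure D3:**
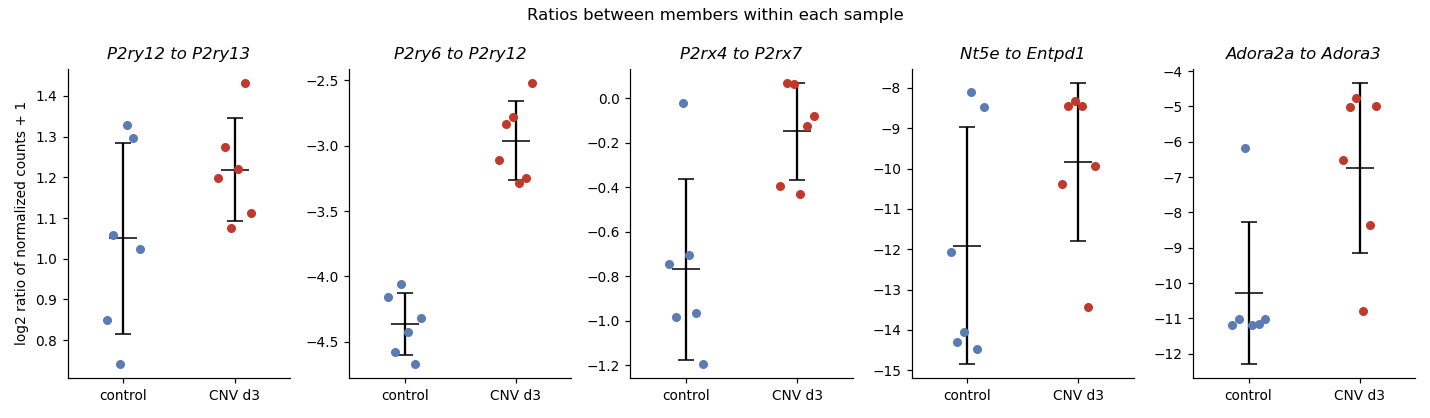
Log2 ratio of the normalized counts (plus 1) of 5 pairs of genes within each sample (points), with the mean and SD of the 6 control and 6 CNV d3 samples. P2ry6 to P2ry12 is the pair without overlap between the groups, from -4.37 in control to -2.96 at CNV d3.

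Levels of different genes can be compared only per length of their exons. Per kb of exon, P2ry12 had 73799 ± 8584 normalized counts in control (SD, n = 6) and was number 11 of 27238 genes, and at CNV d3 it had 24129 ± 6372 and was number 31. P2ry13 was number 23 in control and number 71 at CNV d3. In control, Entpd1 (3538 ± 356 per kb) and P2ry6 (3143 ± 215 per kb) followed with overlapping ranges. P2rx7, Adora3 and P2rx4 came next at 1028 ± 192, 597 ± 37.8 and 507 ± 57.4 per kb, where Adora3 and P2rx4 overlapped. The exon length of Adora3 includes the 20.9% shared with Tmigd3, where reads were left out of the count. Its level per kb may therefore be too low, and its overlap with P2rx4 depends on the length used. P2ry14, Nt5e and Adora2a were at 7.74 or less per kb and overlapped each other. At CNV d3, P2ry6 stood above Entpd1 (2674 ± 356 against 1893 ± 231 per kb) and P2rx4 above Adora3 (668 ± 38.0 against 420 ± 43.8 per kb), in all 6 samples and without overlap. Per kb of coding exon, which leaves out the noncoding part of the exons, P2rx4 was above Adora3 in control already (3057 against 2328) and its mean was above that of P2rx7 as well (3057 against 3015 in control and 4031 against 2574 at CNV d3), while Entpd1 and P2ry6 changed places in the same way. Summed over the 6 receptors for nucleotides, the level per kb was 114222 ± 7379 in control and 38770 ± 9306 at CNV d3. P2ry12 made up 64.4% ± 3.60 of this sum in control and 61.9% ± 2.54 at CNV d3, and P2ry6 2.77% ± 0.32 and 7.09% ± 1.23 (SD, n = 6 each).

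Over the 12 samples, the gene whose log2 level was most like that of P2ry12 was Entpd1, with a Pearson r of 0.994 that was the highest among 9712 genes with a mean over 100 normalized counts. Numb (r = 0.989) and Ythdf2 (r = 0.988) followed, and P2ry13 was number 10 (r = 0.980). As the 12 samples form 2 separate groups, these r values mostly rank genes by the difference between them. Within the 6 CNV d3 samples, the r of P2ry12 with Entpd1 was 0.992 (exact permutation p = 0.00278), its Spearman rho 0.943 (exact permutation p = 0.0167), and its r 0.981 without the 2 samples farthest from the median. Within the 6 control samples r was 0.929 (exact permutation p = 0.0139) and rho 0.771 (exact permutation p = 0.103), and r dropped to 0.636 without the 2 farthest samples, on which the relation in control rests. P2ry12 and P2ry13 gave r = 0.943 within CNV d3 (exact permutation p = 0.00278, rho 0.943 with exact permutation p = 0.0167, and r = 0.887 without the 2 farthest samples) and r = -0.62 within control (exact permutation p = 0.174, rho -0.77 with exact permutation p = 0.103, and r = -0.64 without them). Adjusted over these 4 relations, the p of r was 0.00556 for both within CNV d3, and 0.0185 for Entpd1 and 0.174 for P2ry13 within control. The p of rho became 0.0333 for both within CNV d3 and stayed at 0.103 for both within control. Among the 9712 genes ordered by r with P2ry12, Entpd1 was number 6 within CNV d3 and number 79 within control. P2ry13 was number 68 within CNV d3 and number 8524 within control. Entpd1 was chosen for this after its values were seen, so that its p-values are not an independent test. Within CNV d3, P2ry12, P2ry13 and Entpd1 were all highest in replicates 1 and 4 and lowest in replicates 3 and 6. The summed level of 10 markers of microglia and macrophages had this order as well, and the monocyte sums given below had the reverse. Whether the relations within CNV d3 go beyond this shared order of the samples was not tested.

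**Figure D4:**
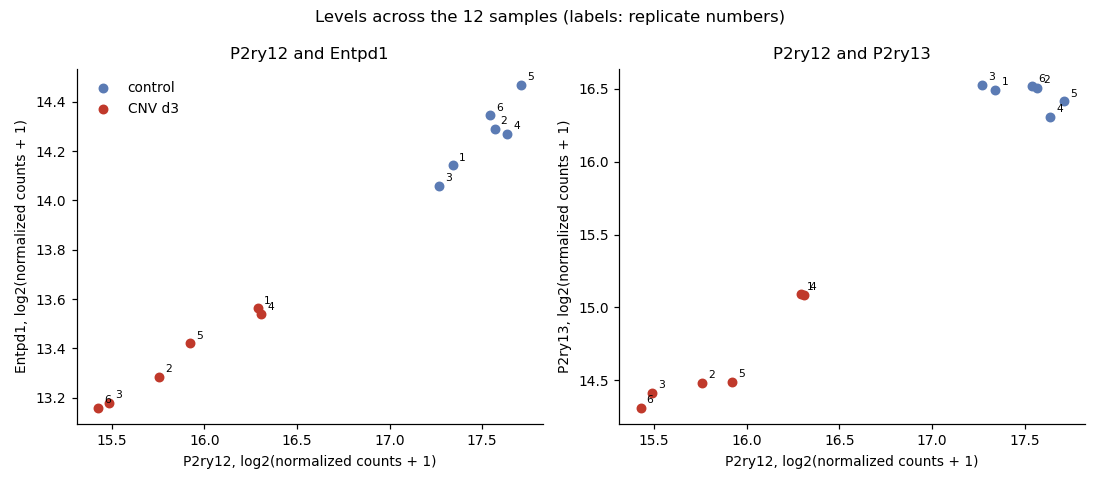
Log2 level of Entpd1 (left) and P2ry13 (right) against that of P2ry12 in the 12 samples, numbered by replicate. Entpd1 lies close to a line with P2ry12 within CNV d3 (r = 0.992) and more loosely within control (r = 0.929), where P2ry13 does not rise with P2ry12 (r = -0.62).

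The CNV d3 samples differed in genes of monocytes as well. The summed level of 8 monocyte markers was 89.1 to 298 normalized counts in control, where 4 of the markers were at 0 in every sample, and 4150 to 50073 at CNV d3, mostly from Fn1. The paper lists Fn1 among the top genes that rose in CNV-associated microglia. Of the 8 markers 5 rose. Ccr2, the receptor that draws monocytes to tissue, rose from 34.2 to 664 normalized counts (limma adjusted p = 0.00455). Ly6c2, whose protein family the gate should remove, was at 0 in every control sample and rose to between 1.73 and 25.1 normalized counts at CNV d3 (limma adjusted p = 0.00134). CNV d3 replicates 1 and 4 had the lowest monocyte sums (4150 and 4716) and the highest P2ry12 (80125 and 81084), and replicates 3 and 6 had the highest sums (50073 and 35690) and the lowest P2ry12 (45935 and 44022). P2ry12 of replicates 1 and 4 lay below every control sample. Without replicates 3 and 6 all 5 genes kept their call. P2ry12 was at -1.44 (limma adjusted p = 5.37e-04), no longer beyond 1.5, with P2ry13 at -1.67, Entpd1 at -0.81, Adora3 at -0.42 and P2rx4 at 0.42. The CNV d3 samples left in this fit still had monocyte sums of 4150 to 17449, above every control sample. The fit therefore cannot show the part of these cells in the levels, which was not tested. Gpr171 was lowest in CNV d3 replicates 1 and 4 (3.69 and 15.6 normalized counts) and highest in 3 and 6 (112 and 127). Adora2b, a further adenosine receptor, was at 0 in replicates 1 and 4 and at 24.2 and 24.1 in 3 and 6. P2ry10 and Alpl did not keep this order. P2ry10 was highest in replicate 2 (107), and Alpl had 65.8 in replicate 4 beside 37.6 in replicate 3. The part of monocytes in these levels was not tested. Of 10 markers of microglia and macrophages 5 fell, among them Tmem119 (log2 fold change -1.06) and Cx3cr1 (-0.84), and Itgam rose (0.72). Csf1r, Aif1, Fcrls and Olfml3 did not pass the test, with log2 fold changes between -0.33 and 0.044.

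Beyond the 10 genes, 44 further genes of purinergic signalling were listed, and 39 of them had values. Of these, 7 rose and 6 fell at an adjusted p under 0.05, beside 8.29% and 4.57% of all genes, and their median log2 fold change was 0.47. Without CNV d3 replicates 3 and 6, the call of 9 of these 13 genes was lost, and Gpr34, Calhm2, Gpr171 and Alpl kept it. The log2 fold changes of the lost calls stayed about as large in most, as in Adora1 (1.11 against 1.15), Adk (0.94 against 1.01) and Slc29a2 (-2.39 against -2.31), with Adora2b (1.76 against 2.72) as the exception past 1.5 times. In this fit of 10 samples 4.12% of all genes then rose and 2.52% fell.

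Among 7 further P2Y and P2Y-like receptors, 2 rose and 2 fell. Gpr34, a microglial receptor for lysophosphatidylserine, fell from 95694 ± 12516 to 44432 ± 13164 normalized counts (SD, n = 6 each) with no overlap (log2 fold change -1.15, SE 0.158, limma adjusted p = 2.65e-04). P2ry10b fell from 921 ± 210 to 570 ± 93.5 (limma adjusted p = 0.0214), a call that was lost (adjusted p up to 0.057) without control replicate 2 or without CNV d3 replicate 2, 5 or 6. P2ry10, a lysophosphatidylserine receptor, was at 0 in 5 of 6 control samples (limma adjusted p = 0.00589). At CNV d3 it had 0 to 107 normalized counts, with 1 sample at 0, so that the groups overlapped. None of 5 further P2X receptors passed the limma test, with 1 (P2rx6) at an unadjusted p under 0.05, 1 called by edgeR and 0 by DESeq2. The one that reached a mean of 1000, P2rx1, a fast ATP-gated channel, had 1448 ± 97.5 normalized counts in control and 1342 ± 356 at CNV d3 (adjusted p = 0.572).

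Both other adenosine receptors rose. Adora1, an inhibitory receptor, rose from 657 ± 237 to 1361 ± 119 normalized counts (SD, n = 6 each) without overlap (log2 fold change 1.15, limma adjusted p = 0.00561). Adora2b, a stimulatory receptor of low affinity, was at 0 in every control sample and at 11.7 ± 11.0 at CNV d3 (limma adjusted p = 0.0423). That is at least 1.96-fold above the value of 3 reads in the sample with the fewest reads, and the call was lost in 10 of the 12 fits that left out 1 sample (adjusted p up to 0.117), those without CNV d3 replicate 1 or 4 being the exceptions. Of the ectoenzymes, Enpp1, which cuts ATP to AMP, rose from 694 ± 248 to 1246 ± 289 (limma adjusted p = 0.0165, lost, at an adjusted p of up to 0.065, without control replicate 1 or 2 or CNV d3 replicate 2, 3, 5 or 6). Alpl, the alkaline phosphatase, was at 1.99 normalized counts or less in control and at 10.9 to 95.5 at CNV d3 (limma adjusted p = 7.45e-04).

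Of 10 nucleoside enzymes and transporters, 3 fell and 1 rose. The 3 that fell are equilibrative nucleoside transporters. The lysosomal Slc29a3 fell from 22262 ± 1547 to 15393 ± 3378 normalized counts (SD, n = 6 each, log2 fold change -0.56, limma adjusted p = 0.00772). Slc29a1 fell from 3533 ± 593 to 2600 ± 328 (limma adjusted p = 0.0289, lost in 8 of the 12 fits that left out 1 sample, at an adjusted p of up to 0.0731, and kept without control replicate 3 or 6 or CNV d3 replicate 1 or 4), and Slc29a2 from 179 ± 118 to 32.7 ± 22.2 (log2 fold change -2.31, limma adjusted p = 0.0154). Adk, the kinase that turns adenosine to AMP, rose from 280 ± 105 to 537 ± 82.4 (limma adjusted p = 0.0108). Pnp, which splits inosine and guanosine, was at 1984 ± 162 and 1675 ± 187 (limma adjusted p = 0.141). Of 6 genes of ATP release, Calhm2, a channel subunit, fell from 3097 ± 342 to 1888 ± 521 without overlap (log2 fold change -0.76, limma adjusted p = 0.0104), and the others did not pass the test. Of the 3 intracellular nucleoside diphosphatases with values, 0 passed the limma test, 2 (Entpd5 and Entpd6) had an unadjusted p under 0.05, and edgeR and DESeq2 called 0.

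**Figure D5:**
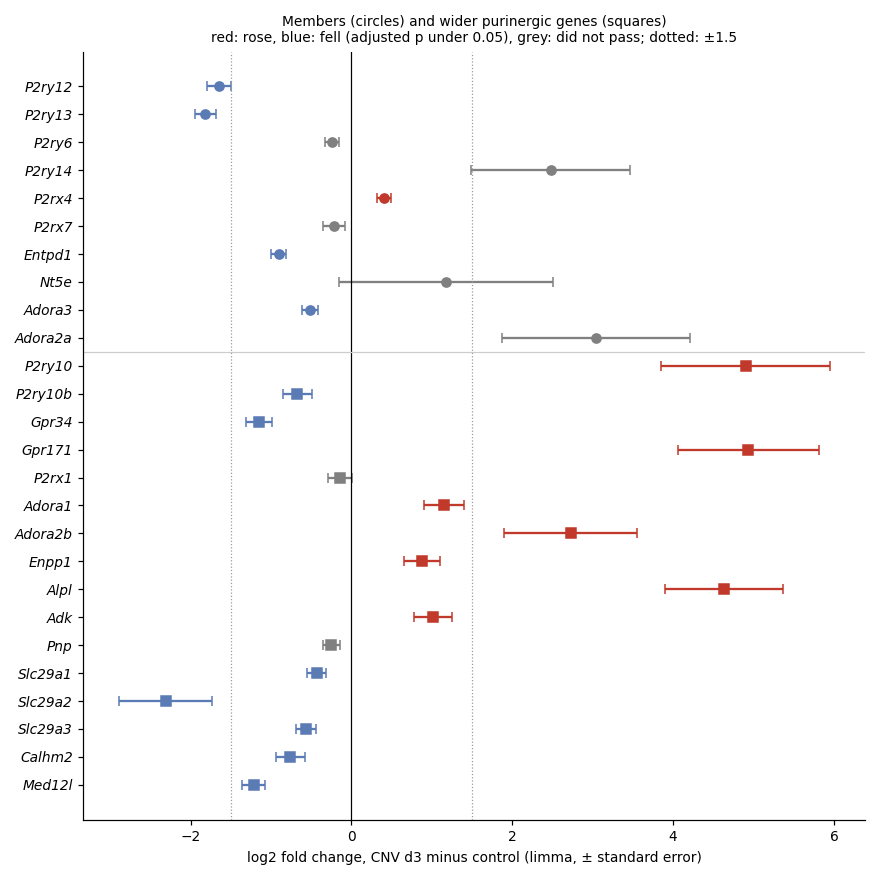
Log2 fold change of CNV d3 against control with its standard error (limma) for the 10 genes (circles) and for the further purinergic genes that changed or reached a mean of 1000 normalized counts, with Med12l (squares). P2ry12, P2ry13 and Slc29a2 lie beyond the dotted line at -1.5, and the genes with a log2 fold change above 4 (P2ry10, Gpr171 and Alpl) are near 0 in control.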

How the data were processed

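RNA of sorted retinal microglia was amplified with the SMARTer Ultra Low Input kit (12 to 14 PCR cycles), which does not mark strand, made into Nextera XT libraries and read in 50 cycles. Per the methods and the labels, the authors mapped the reads with STAR 2.7.2b to GRCm38.p6 with Gencode M25, merged 2 files per sample, counted with featureCounts 1.6.4 at default settings, which leave out reads on 2 overlapping genes, and removed genes without reads. The deposited signal is the read count over the DESeq2 1.22.2 size factor of each sample, called normalized count here. The further deposited columns with group means, log2 fold changes and adjusted p-values were not used.

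The groups came from the labels, and samples listed in 2 parts were counted as 1. Every control sample was listed in 2 parts, but of the CNV d3 samples only replicate 4 was. This layout thus nearly follows the group, and its part in the levels was not tested. Every deposited value was a whole multiple of the value of 1 read (100% within 0.01), and the recovered reads on genes were 10963178 to 22335233 per control sample and 23532260 to 29523018 per CNV d3 sample. These counts include PCR copies, and bounds cover counting error only.

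All 27299 genes were fitted with limma 3.58.1 in R 4.3.3 (trend, pseudocount of 1, no further filter, adjusted p under 0.05), so that fold changes of genes near 0 depend on the pseudocount. Single ratios were tested by two-sided exact permutation over 924 labellings. edgeR 4.0.16 (TMM) and DESeq2 1.42.0 on the recovered reads, other pseudocounts, filters, scalings, a replicate block and leaving out samples were alternatives. The fits were also run on simulated counts. The spread of these was set by a formula and not taken from the samples, so that this run does not measure how well the fits do here. Gene positions and exon lengths came from Gencode M21 (GRCm38), which matched 27238 of the 27299 IDs. Genes named are the 10, further purinergic genes that changed or reached a mean of 1000, the P2ry12 cluster and the 3 genes most like P2ry12, and the mention of Tmigd3 was chosen after its values were seen. The genes and lists were chosen with earlier results of these data known.

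The further marker lists gave sums of at most 26.4 normalized counts for neutrophils and 10.9 for T and NK cells (0 called by limma, edgeR or DESeq2, and 0 at an unadjusted p under 0.05), 144 to 844 for platelets (1 of 4 fell), at most 173 for mast cells (1 of 2 rose), 443 to 990 for endothelial cells (1 of 4 rose, 1 fell), 411 to 10381 for photoreceptors (0 of 7 passed with limma, 1 at an unadjusted p under 0.05 and 1 each with edgeR and DESeq2) and 5157 to 9773 for Mueller glia and astrocytes (1 of 5 fell).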

Additional observations from a re-analysis of the deposited data

Results flagged for a closer look

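Outlying samples were sought on log2 of the normalized count plus 1, or on the log2 ratio. A sample was set apart from its group when its gap to the nearest sample, divided by the range of the 6 samples, exceeded Dixon's critical value for 6 samples. For a sample at 0 this gap depends on the pseudocount. Of 30 groups of values tested this marked 5, where chance marks about 1 in 20. That rate does not hold for groups with several samples at 0, such as Adora2a in control. P2rx7 in control replicate 3 was low at 3915 normalized counts. The same sample was the one control sample with Adora2a above 0, at 31.5 normalized counts, and its log2 ratio of Adora2a to Adora3, which rests on that value, was high at -6.19. P2ry14 was at 0 in control replicate 4, and Nt5e was at 0 in CNV d3 replicate 5.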

How the results depend on the processing

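Of the 10 genes, P2ry12, P2ry13, Entpd1 and Adora3 kept their direction and their side of the threshold in every alternative fit, and P2ry12 fell short of the log2 fold change of 1.5 only without the 2 CNV d3 samples with the highest monocyte sums, an alternative chosen after seeing the data. P2rx4 lost its call in limma without the trend (log2 fold change 0.40, adjusted p = 0.0571), and kept it in the other fits. Nt5e reversed to -0.33 with DESeq2 and -0.31 with edgeR, which is the sign of the ratio of its means (79.4% of control). It was at 0 in 3 control samples and 1 CNV d3 sample, and the cause of the reversal was not tested. The filter left Nt5e and Adora2a out. Leaving out 1 sample gave log2 fold changes of -0.30 to -0.20 for P2ry6, -0.34 to -0.15 for P2rx7 and 2.68 to 3.87 for Adora2a, which each passed the test in 1 or 2 of the 12 fits, and 1.41 to 2.98 for P2ry14, which passed in none. With a pseudocount of 0.5 or 10, the log2 fold change was 3.67 or 1.23 for Adora2a and 2.65 or 1.84 for P2ry14, and the log2 ratio of Adora2a to Adora3 differed by 4.18 or 1.74.

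Over all genes, DESeq2 called 2160 genes lower, 572 of them DEG, beside 1247 and 293 with limma, and a pseudocount of 10 gave 600 higher DEG beside 1068. Without the 2 CNV d3 samples with high monocyte sums, 1124 genes rose and 688 fell, with 553 and 176 DEG (fewer samples), and the log2 ratio of P2rx4 to P2rx7 differed by 0.55 (exact permutation p = 0.0571) and that of Adora2a to Adora3 by 2.62 (exact permutation p = 0.105). The replicate numbers did not pair the samples (correlations of deviations from -0.019 to 0.051, with 1 of 6 samples closest to its own number). With the replicate block, P2ry12 had a log2 fold change of -1.65 and no call of the 10 genes changed, while P2ry10b, Adora2b and Slc29a1 lost theirs. What the depth allows to be detected was not measured.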
